A study of Mus musculus with 26 samples.

Results

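DRR ChIRP-seq was read in 4 of the 26 samples of the series, chosen by their labels: 2 libraries made with DRR probe pool1 and 2 made with DRR probe pool2, all from C2C12 cells at the myotube (MT) stage. C2C12 cells are mouse muscle precursors (myoblasts) kept as an established line, and on low serum they join into myotubes. The cells were grown with 20% serum and differentiated in 2% horse serum with insulin, transferrin and selenium. None of the 4 libraries carries a transfection label, and both pools share the glutaraldehyde fixation described in the labels' protocols. Beside them stand 2 ATAC-seq libraries of control-transfected myotubes and 2 SMC3 ChIP-seq libraries of myotubes with no transfection label. No gene expression belongs to these lists, so the myotube stage rests on the label. The LacZ probe and input libraries, which would show what the beads or unrelated probes bring down, were not analysed here.

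The DRR, or distal regulatory region, is an enhancer upstream of Myod1, the gene of a transcription factor that commits cells to the muscle lineage. Active enhancers are transcribed into enhancer RNAs, and the title of the series describes the DRR RNA as acting in trans, on genes away from its own locus, through cohesin. In ChIRP, biotinylated antisense oligonucleotides hybridise to an RNA in fixed chromatin and bring down the DNA it lies against. Probes are commonly split into pools that share no oligonucleotide, so that DNA caught by a probe itself appears in only 1 pool. The probe sequences were not used here, so whether these pools share oligonucleotides was not tested. The comparison asks how far the pools mark the same places.

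Each library had its own list of single-base summits in mouse build mm9. On chromosomes 1 to 19 and X, pool 1 had 3765 summits in replicate 1 and 68166 in replicate 2, and pool 2 had 22983 in replicate 1 and 20204 in replicate 2. The pool 1 lists thus stand far apart in length, on either side of both pool 2 lists, and values are therefore given library by library. The depth of sequencing is unknown, so its part in list length was not tested, and a summit is a peak call, not a measure of occupancy. The score that the authors' peak caller gave each summit served only to rank summits within their own list: a rank percentile of 100 is the best. Scores were heavily tied, with 540 and 3713 distinct values in pool 1 replicates 1 and 2, and 1227 and 1356 in pool 2 replicates 1 and 2, so that the deciles of a list are not equal in size. A summit was counted as recurring in another list when a summit there lay within 500 bp, which is when windows of 250 bp on each side overlap. Intervals beside shares are 95% Wilson intervals, which cover counting error only and treat summits as independent.

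Within pool 1 the short list was almost wholly contained in the long one. Of the 3765 summits of replicate 1, 3657 recurred in replicate 2, which was 97.1% (96.5 to 97.6), while 5.33% (5.17 to 5.51) of the 68166 summits of replicate 2 recurred in replicate 1. Containment held throughout the ranking of replicate 1: 99.5% of the best decile of its summits recurred, and 86.0% of the last decile. Seen from replicate 2, recurrence was concentrated at the top. Of its best decile 41.9% recurred in replicate 1, of its second decile 4.59%, and of its last decile 0.327%. The replicate 2 summits that recurred had a median rank percentile of 97.0, and the others 46.9. All 100 best summits of each pool 1 list recurred in the other. Over the 3603 regions that the 2 lists shared, Spearman's correlation between rank percentiles was 0.722, given as a description of these regions.

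Within pool 2 the lists were of like length and agreed in a graded way. Of the summits of replicate 1, 54.8% (54.2 to 55.5) recurred in replicate 2, and of those of replicate 2, 62.2% (61.5 to 62.9) recurred in replicate 1. In replicate 1 the share was 86.5% in the best decile, 52.1% in the fifth and 30.5% in the last. In replicate 2 it was 97.0%, 61.7% and 33.7% at the same places. Of the 100 best summits, 97 of replicate 1 and 99 of replicate 2 recurred. Spearman's correlation over the 12509 shared regions was 0.442, below the 0.722 of pool 1; the difference was not tested.

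**Figure D1:**
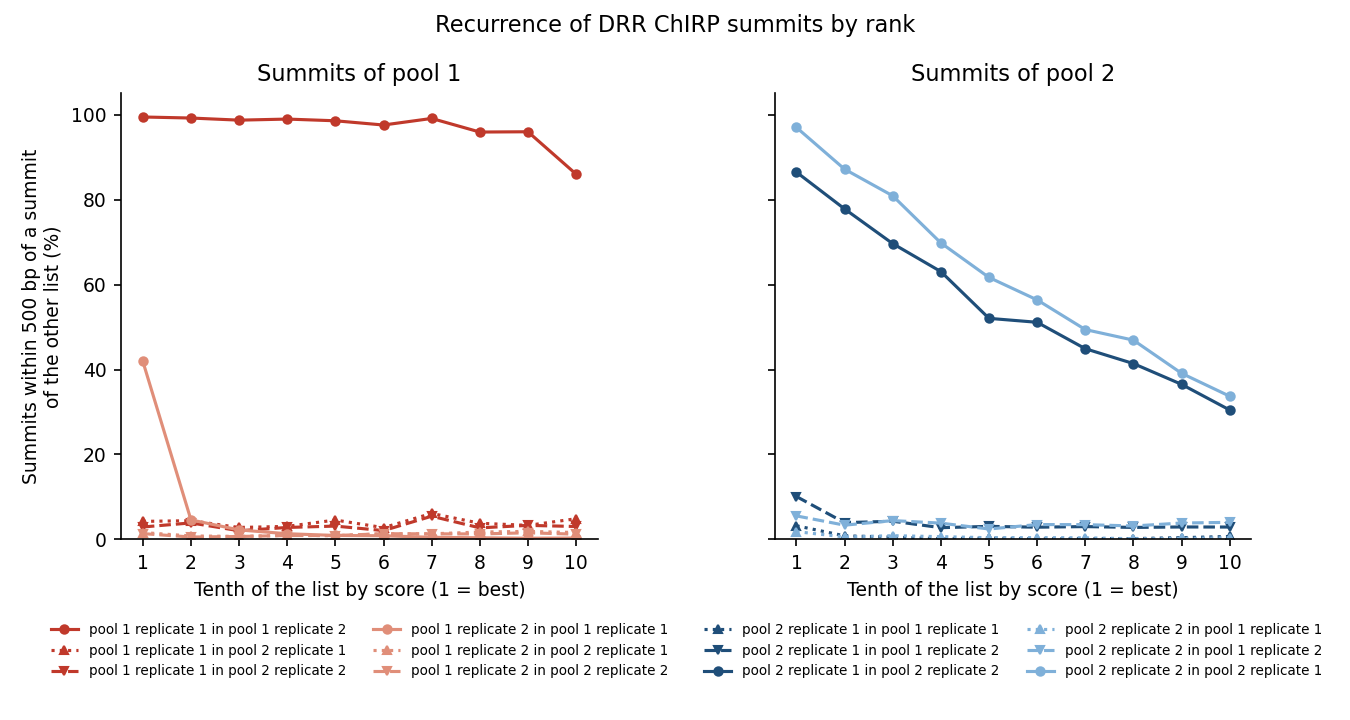
Share of summits (y axis, %) with a summit of another list within 500 bp, by decile of the list's score (x axis, 1 = best). Left, summits of pool 1; right, summits of pool 2; solid lines with circles mark the other replicate of the same pool, dotted and dashed lines with triangles the lists of the other pool. Replicate 1 of pool 1 stays near the top throughout, pool 2 declines with rank, and nearly all lines between pools run below 7%, the exception being 10.1% in the best decile of pool 2 replicate 1.

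Between pools few summits recurred. Of the pool 1 replicate 1 summits, 4.04% (3.45 to 4.71) recurred in pool 2 replicate 1 and 3.21% (2.70 to 3.83) in pool 2 replicate 2. For pool 1 replicate 2 the shares were 1.29% (1.20 to 1.37) and 1.11% (1.04 to 1.20). Positions within 500 bp of a summit made up 0.867% of the chromosome length for pool 2 replicate 1 and 0.764% for pool 2 replicate 2, below all 4 of these shares. In the other direction, 0.670% of pool 2 replicate 1 and 0.589% of pool 2 replicate 2 recurred in pool 1 replicate 1, whose surroundings covered 0.141% of the length. In pool 1 replicate 2, which covered 2.57%, 3.81% and 3.75% recurred.

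Among the 100 best summits of each list, 3 to 10 of pool 1 and 13 to 49 of pool 2 recurred in a list of the other pool. Of the 100 best summits of pool 1 replicate 1, 10 recurred in pool 2 replicate 1 and 5 in pool 2 replicate 2; of those of pool 1 replicate 2, 7 and 3 did. Of the 100 best summits of pool 2 replicate 1, 37 recurred in pool 1 replicate 1 and 49 in pool 1 replicate 2. Of the 100 best of pool 2 replicate 2, 13 and 18 did. By deciles, 10.1% of the best decile of pool 2 replicate 1 recurred in pool 1 replicate 2, against 2.76% to 4.28% in its other deciles. In pool 2 replicate 2 the best decile stood at 5.53%, against 2.45% to 4.43%. In pool 1 the best decile stood inside the range of the others in each of the 4 comparisons. For pool 1 replicate 1 it was 4.24% in pool 2 replicate 1, against 2.77% to 6.11%, and 2.92% in pool 2 replicate 2, against 2.04% to 5.46%. For pool 1 replicate 2 it was 1.61% in pool 2 replicate 1, against 0.709% to 1.89%, and 1.36% in pool 2 replicate 2, against 0.559% to 1.55%. In that list the best decile was above the second to the fifth, which ran from 0.709% to 0.948% in pool 2 replicate 1.

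Where lists shared a place, the exactness of the match differed. Recurring summits of pool 1 replicate 1 lay a median of 26 bp from a summit of replicate 2, and those of pool 2 replicate 1 lay 24 bp from one of pool 2 replicate 2. Between pool 1 replicate 1 and pool 2 replicate 1 the median was 16 bp, with quartiles of 4 and 185 bp, and 92 of 152 recurring summits lay within 50 bp. Between pool 1 replicate 2 and pool 2 replicate 1 it was 122 bp, with quartiles of 18 and 293 bp, and 292 of 877 lay within 50 bp. Pairs of summits of these last 2 lists numbered 386 at 1 to 100 bp. From 101 to 500 bp there were 93 to 143 pairs for each 100 bp, against a median of 111 between 501 and 3000 bp. Matches beyond 100 bp thus stood near the level of neighbouring summits, and they made up more of the sharing for the long pool 1 list. Just inside the limit of 500 bp, 121 pool 1 replicate 2 summits had their nearest pool 2 replicate 1 summit at 401 to 500 bp. Just outside it, 321 had theirs at 501 to 600 bp, so a group of summits a little further apart lay beyond the limit.

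**Figure D2:**
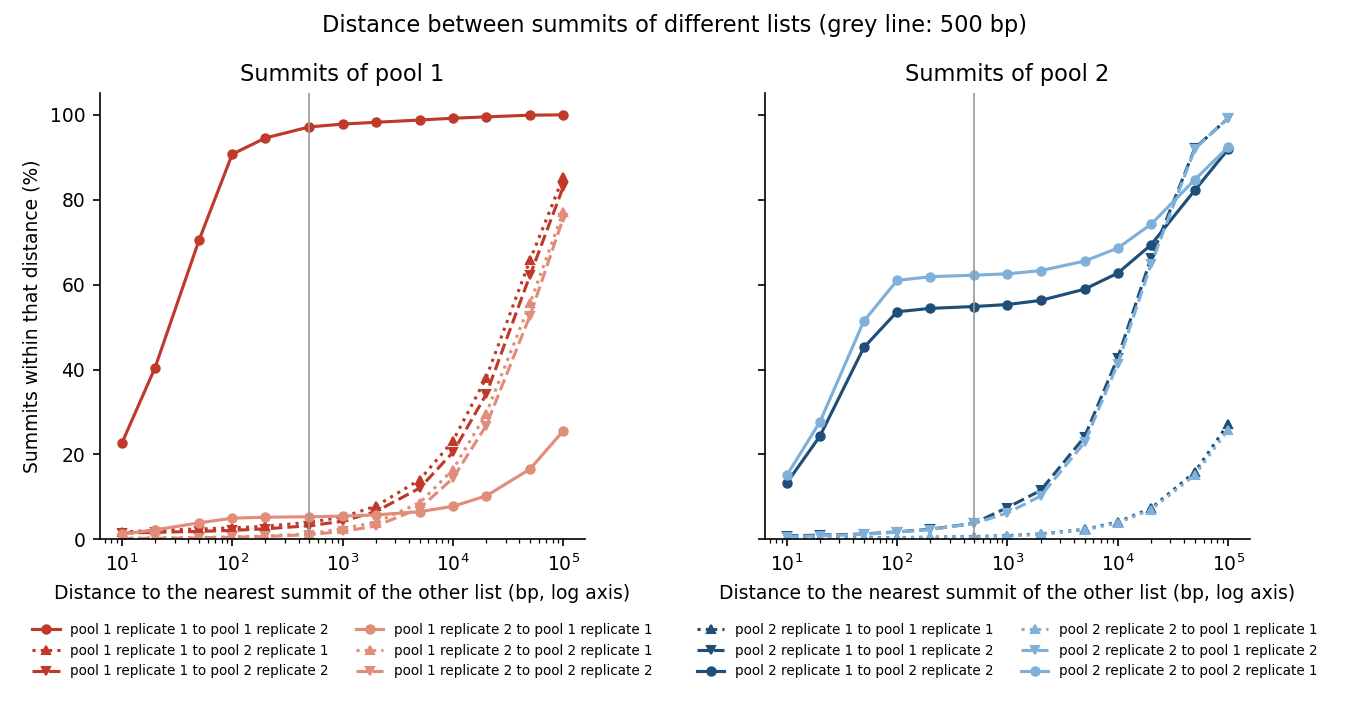
Share of summits (y axis, %) that have a summit of another list within a given distance (x axis, bp, log axis). Left, summits of pool 1; right, summits of pool 2; solid lines with circles mark the other replicate of the same pool, dotted and dashed lines with triangles the lists of the other pool. Between 100 and 1000 bp the curves within pool 2 are nearly flat, as for replicate 1 at 53.6% and 55.3%. That of pool 1 replicate 1 to pool 1 replicate 2 rises from 90.7% to 97.8%. Every curve climbs further at longer distances.

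Widened and merged over the 4 lists, the summits gave 97279 regions, of which 80694 (83.0%) were called in a single library. Both pool 1 libraries and neither pool 2 library called 3459 regions, 3.56% of all. Both pool 2 libraries and neither pool 1 library called 11980, 12.3% of all. All 4 libraries called 101 regions, 0.104% of all, and at least 1 library of each pool called 1146, 1.18% of all. These counts rest on list length. When every list was cut to its 3765 best summits, there were 10619 regions. Of these, 2490 were of pool 1 only, 1704 of pool 2 only and 29 of all 4. Most of the 1146 rested on pool 1 replicate 2, since 163 of 34011 regions were left without it. Without pool 2 replicate 1, 763 of 87330 regions were left. Without pool 1 replicate 1, which was the shortest list, 521 of 97213 regions were called by all 3 others.

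The 101 regions of all 4 libraries had a median percentile of 46.0 in pool 1 replicate 1 and 94.6 in pool 1 replicate 2, and of 99.2 in pool 2 replicate 1 and 76.9 in pool 2 replicate 2. The lists differ in length, and regions of pool 1 only showed a like gap, at 51.6 in replicate 1 and 97.1 in replicate 2. The 4 best summits of a region lay within a median span of 14 bp, against 26 bp between the 2 lists for regions of pool 1 only and 24 bp for those of pool 2 only. Leaving out chromosome 18, the highest by mean rank was on chromosome 17, at chr17:4626087-4626607, at percentiles of 99.84 and 99.98 in pool 1 and 100 in each pool 2 list. It holds the best summit of both pool 2 lists, at 4626343 with a score of 398 in replicate 1 and at 4626351 with a score of 285 in replicate 2. The pool 1 summits there lay at 4626357 and 4626337, so the 4 lists placed it within 20 bp.

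Among the 10 highest regions of all 4 libraries the mean percentile ran down to 96.2. A region on chromosome 2, chr2:60240607-60241112, had its summits within 5 bp, at percentiles of 91.9 and 99.2 in pool 1 and 99.97 and 99.91 in pool 2. The second on the list, chr8:12377980-12378698, was spread over 218 bp, at 99.3 and 99.97 in pool 1 and 99.4 and 98.7 in pool 2. The last of them lay on chromosome X at chrX:119944777-119945285, at 87.2 and 98.1 in pool 1 and 99.9 and 99.5 in pool 2.

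Most of the strongest pool 1 places had no pool 2 summit, the regions on chromosomes 17 and 8 above being exceptions. The best place of both pool 1 lists was on chromosome 9, at 42827147 in replicate 1 with a score of 142 and at 42827122 in replicate 2 with a score of 496. The nearest pool 2 summits lay 95035 bp away in replicate 1 and 136049 bp away in replicate 2, counted from the replicate 1 summit. The next regions of pool 1 only were chr2:167094851-167095387, chr1:73878934-73879589 and chr8:97232130-97232632, and all 10 of the highest stood at a mean percentile of 99.8 or more. A second region on chromosome 2, chr2:167576151-167577016, was the last of these 10. Of the 3459 regions, 641 (18.5%) had a mean percentile of 90 or more.

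Pool 2 likewise had places of its own at the top. The highest region of pool 2 only was chr7:129088454-129088954, where both replicates put the summit on the same base, at percentiles of 99.987 in replicate 1 and 99.995 in replicate 2. It was followed by chr15:91290506-91291064, chr6:128584402-128584904 and chr2:117605243-117605744. In the last 2 the summits of the replicates lay 2 bp and 1 bp apart. Of the 11980 regions, 1229 (10.3%) had a mean percentile of 90 or more. The genes near these places are not named, because the annotation used here is of another build.

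Neighbouring summits lay a median of 291875 bp apart in pool 1 replicate 1 and 24915 bp in replicate 2, and 63691 bp in pool 2 replicate 1 and 77976 bp in replicate 2. Spacing follows list length, and with 3765 summits in each list the medians were 291875 and 356210 bp in pool 1, and 321611 and 400469 bp in pool 2. At that equal length pool 1 summits more often had a neighbour within 10 kb: 12.8% and 8.02% in pool 1, against 6.69% and 4.91% in pool 2. The groups did not overlap in this, and the exact permutation p was 0.333, the smallest that 2 libraries against 2 can give (two-sided). The cut kept all of pool 1 replicate 1, weak summits included, but only the best-scoring summits of the other lists. Pool 1 also held dense local rows of summits, described below, and their part in these shares was not tested.

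Pool 1 replicate 2 held a recurrent distance that stood out in no other list. Pairs of its summits 1401 to 1500 bp apart numbered 1929, against a median of 140 pairs for each 100 bp between 501 and 3000 bp. At the same distance pool 1 replicate 1 had 7 pairs, and pool 2 had 27 in replicate 1 and 15 in replicate 2. Taking pairs 1351 to 1550 bp apart, a range chosen after this was seen, 2487 pairs joined 4950 summits, or 7.26% of the list, at a median distance of 1467 bp. In pool 1 replicate 1 the same range joined 0.425% of the summits, and in pool 2 it joined 0.479% of replicate 1 and 0.346% of replicate 2.

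These paired summits were not weak. Their median rank percentile in pool 1 replicate 2 was 71.4, against 46.9 for its other summits, and they made up 14.9% of the second decile of the list and 1.62% of the last. Yet 0.808% of them recurred in pool 1 replicate 1, against 5.33% of the whole list. In pool 2 replicate 1, 0.182% recurred, and in pool 2 replicate 2, 0.141%, against 1.29% and 1.11% of the whole list. Of the paired summits 0.566% lay in accessible chromatin, against 3.06% of the others. Chromosome X held 10.6% of them, against 6.56% of the others, and at 1.58 pairs per Mb it had the highest density of all 20 chromosomes, with chromosome 11 the lowest at 0.492.

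**Figure D3:**
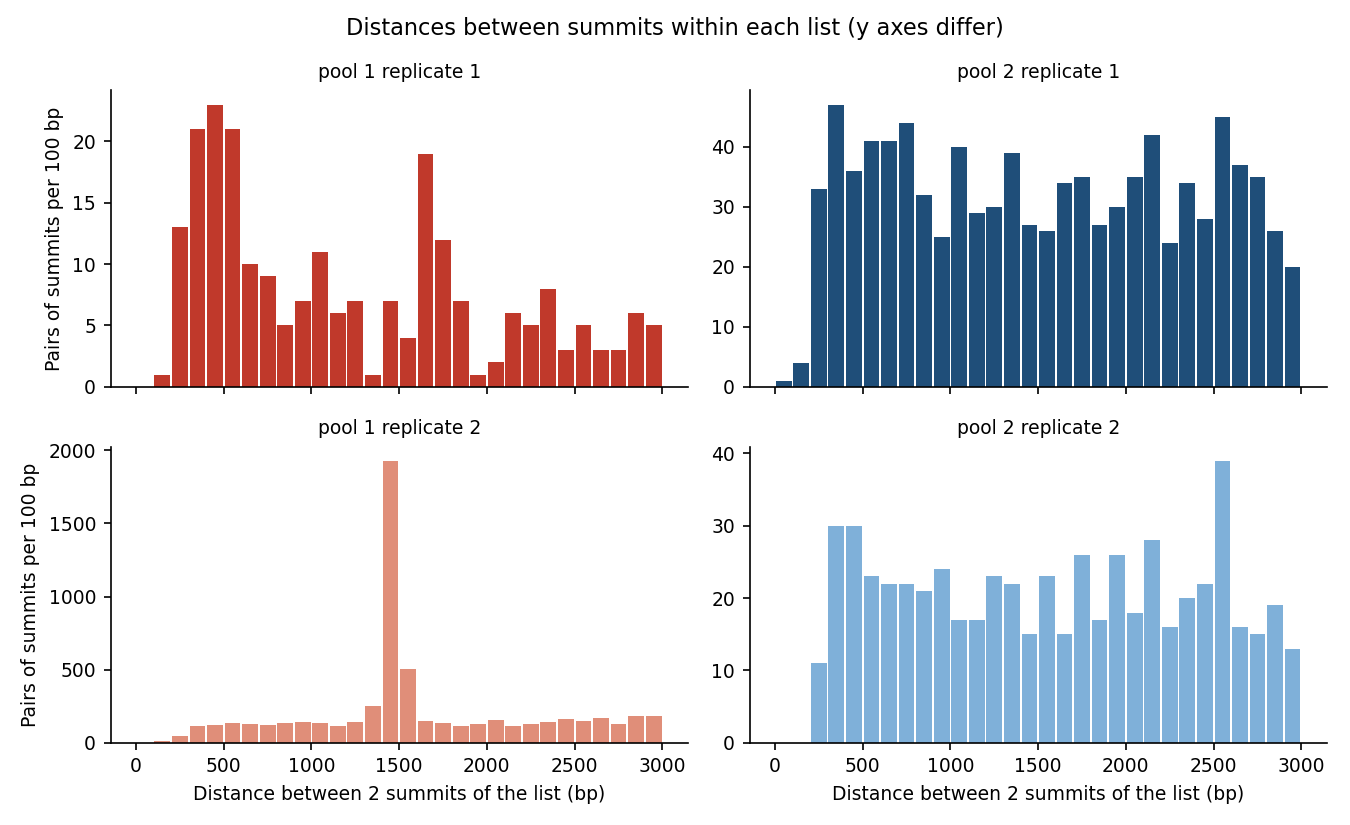
Number of pairs of summits (y axis, per 100 bp of distance, scales differ) by the distance between them (x axis, bp) within each list, with pool 1 on the left and pool 2 on the right. Pool 1 replicate 2 has 1929 pairs at 1401 to 1500 bp, over a level of about 140, and no other list has such a maximum there.

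Above 1 kb, a different distance stood out in pool 1 replicate 1, mostly at 1 place. The list had 19 pairs at 1601 to 1700 bp, fewer than the 21 to 23 for each 100 bp from 301 to 600 bp. Of its 31 pairs of summits 1601 to 1800 bp apart, 23 lay in a single stretch of chromosome 8, between 126000001 and 127000000. That window held 35 summits of the list at a median spacing of 1706 bp, and 28 of them lay between 126061649 and 126131175. All 35 recurred in pool 1 replicate 2, which had 71 summits in the window at a median spacing of 1708 bp and a median percentile of 98.9. Pool 2 had 13 and 10 summits in the window, at median spacings of 41887 and 71597 bp. The regular row was therefore a feature of both pool 1 lists and of neither pool 2 list.

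Leaving out chromosome 18, the densest window of 1 Mb in pool 1 replicate 1 was at the start of chromosome 11 (3000001 to 4000000), with 41 summits at a median spacing of 1266 bp. It behaved differently, since 16 of the 41 recurred in replicate 2 and their median percentile was 8.07. Pool 1 replicate 2 had 39 summits there, and pool 2 had 26 and 15. The window from 86000001 to 87000000 on chromosome 8 was among the 5 densest in every list, with 17 and 65 summits in pool 1 and 45 and 40 in pool 2. The 4 other leading windows of pool 2 replicate 1 also lay on chromosome 8, between 87000001 and 98000000. Over the 14 Mb from 84000001 to 98000000, a stretch chosen after these windows were seen, pool 1 had 4.86 and 1.89 times its mean density and pool 2 had 3.70 and 2.85 times. Over 2581 windows of 1 Mb, Spearman's correlation between summit counts was 0.188 within pool 1 and 0.810 within pool 2. With the pool 2 lists, pool 1 replicate 1 stood at 0.366 and 0.336, above the value within pool 1, and pool 1 replicate 2 at 0.172 and 0.146. Pool 1 replicate 1 had a mean of 1.43 summits per Mb.

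Between the pools a second recurrent distance was seen. Pool 1 replicate 2 and pool 2 replicate 1 had 564 pairs of summits 501 to 700 bp apart and 216 pairs 701 to 900 bp apart. With pool 2 replicate 2 the numbers were 266 and 183. Pool 1 replicate 1 did not show it, with 22 and 27 pairs to pool 2 replicate 1 and 12 and 23 to pool 2 replicate 2. Of the 564 pool 1 summits in these pairs, 9 were also in a pair 1351 to 1550 bp apart, so the recurrent distances involve different summits.

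Across chromosomes the short pool 1 list was the most uneven. Relative to the mean density of its list, pool 1 replicate 1 was highest on chromosome 8, at 1.66 times, and on chromosome 11, at 1.48 times, and lowest on chromosome X, at 0.252 times. Pool 1 replicate 2 ran from 0.854 times on chromosome 7 to 1.16 times on chromosome 15. Both pool 2 lists had the same extremes: chromosome 7 stood at 0.617 and 0.703 times, and chromosome 15 at 1.44 and 1.39 times. Chromosome 7 carries Myod1 and with it the DRR. In ATAC-seq of control myotubes chromosomes 7 and 15 also stood low and high, at 0.761 and 0.829 times for chromosome 7, and 1.48 and 1.43 times for chromosome 15. The part of chromosome copy number in these densities was not tested.

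Chromosome X separated the pool 1 lists. It held 60 of 3765 summits in pool 1 replicate 1 (1.59%, 1.24 to 2.05) and 4673 of 68166 in replicate 2 (6.86%, 6.67 to 7.05). In pool 2 it held 5.25% (4.97 to 5.55) of replicate 1 and 5.29% (4.99 to 5.61) of replicate 2. Chromosome X made up 6.31% of the length. The pool 1 summits that recurred in the other pool 1 list were at 1.61% in replicate 1 and 1.60% in replicate 2, against 5.37% and 5.39% for recurring pool 2 summits. Within a pool these are largely the same places seen from each list, so the 2 values are close by construction. In pool 1 they follow replicate 1, of which 97.1% recurred. Among the 3765 best of each list, the shares were 1.59% and 3.05% in pool 1, and 6.08% and 6.16% in pool 2, again without overlap between the pools (exact permutation p = 0.333). The count of recurring summits by chromosome was added after the data were seen. Accessible regions and SMC3 sites were also sparse on chromosome X, at 0.415 and 0.382 times the mean density in the control ATAC lists and 0.322 and 0.328 times in the myotube SMC3 lists.

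Over the 20 chromosomes, Spearman's correlation between densities was 0.266 for the 2 lists of pool 1 and 0.974 for those of pool 2. Pool 1 replicate 1 was closer to the pool 2 lists, at 0.838 and 0.795, than to its own replicate, and pool 1 replicate 2 stood at 0.356 and 0.367 to them. Over the 19 autosomes alone the value was 0.451 within pool 1 and 0.970 within pool 2, that of pool 1 replicate 1 to pool 2 was 0.823 and 0.774, and that of pool 1 replicate 2 to pool 2 was 0.518 and 0.530. The values of pool 1 replicate 2 thus moved with chromosome X. These are descriptions over chromosomes that share base composition and gene density. With the 2 control ATAC lists, pool 1 replicate 1 stood at 0.842 and 0.729 and pool 1 replicate 2 at 0.311 and 0.220, while pool 2 replicate 1 stood at 0.919 and 0.892 and pool 2 replicate 2 at 0.857 and 0.859. With the 2 myotube SMC3 lists, pool 1 replicate 1 stood at 0.722 and 0.755 and pool 1 replicate 2 at 0.012 and 0.057, while pool 2 replicate 1 stood at 0.725 and 0.759 and pool 2 replicate 2 at 0.684 and 0.731.

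**Figure D4:**
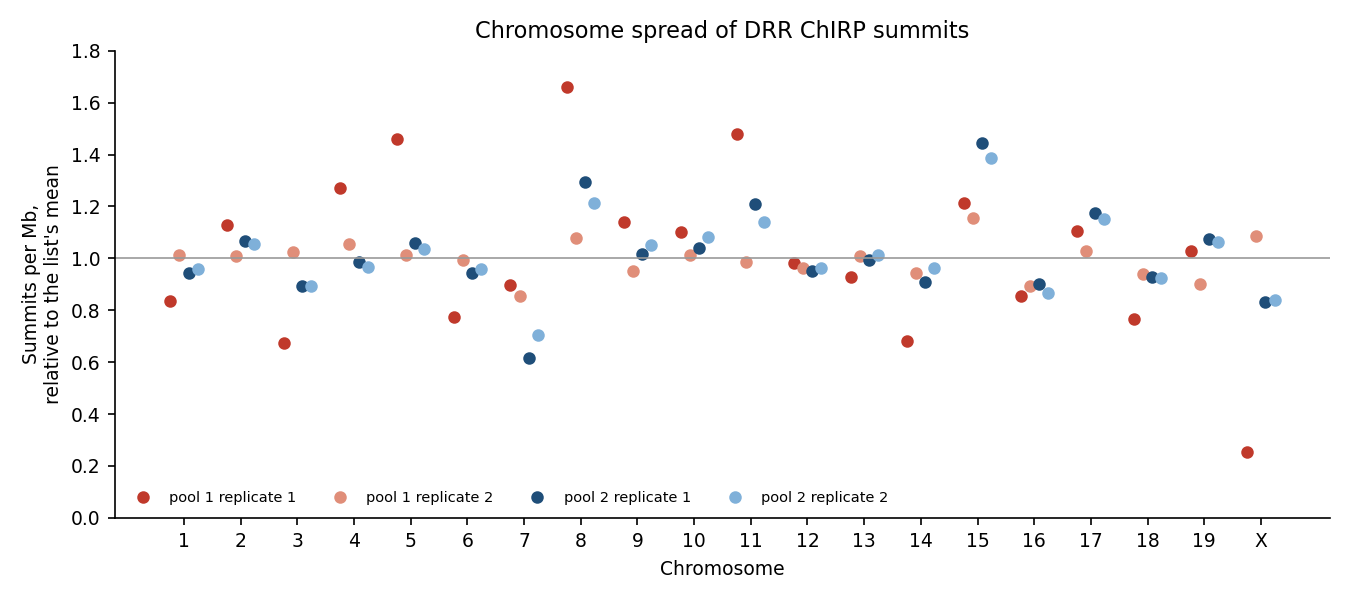
Summits per Mb on each chromosome (x axis), divided by the mean density of the list (y axis, grey line at 1), for the 4 libraries as coloured points. Pool 1 replicate 1 lies far below the mean on chromosome X, at 0.252 times, and both pool 2 lists are lowest on chromosome 7 and highest on chromosome 15.

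Accessible chromatin of control myotubes, as 38788 regions called in both control ATAC libraries, lay within 250 bp of 2.44% of the chromosome length. Of pool 1 summits 4.01% (3.43 to 4.69) in replicate 1 and 2.88% (2.76 to 3.01) in replicate 2 met it. Of pool 2 summits 5.93% (5.63 to 6.24) in replicate 1 and 4.22% (3.95 to 4.50) in replicate 2 did. How this varied with rank differed between the lists. In pool 1 the share was lower in the better deciles, at 2.65% of the best and 8.51% of the last decile in replicate 1, and 2.51% and 4.40% in replicate 2. In pool 2 it was 6.97% of the best and 5.93% of the last decile in replicate 1, and 4.52% and 5.06% in replicate 2. The pool 2 lists thus did not share a direction. The second decile held the lowest share of both pool 1 lists and the highest of pool 2 replicate 1. There 5 of 386 and 120 of 6794 pool 1 summits met it, against 177 of 2259 and 78 of 2059 pool 2 summits.

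**Figure D5:**
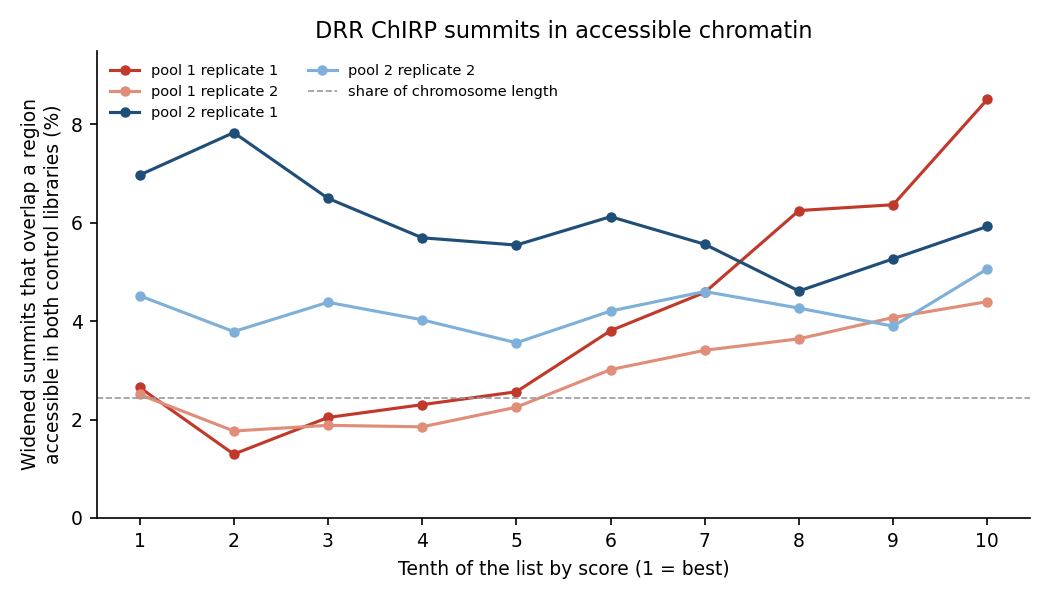
Share of widened summits that overlap a region accessible in both control myotube libraries (y axis, %) by decile of the list's score (x axis, 1 = best), for the 4 ChIRP libraries; the dashed line marks the 2.44% of chromosome length from which such an overlap is possible. The pool 1 lists lie near or below the line in the better deciles and above it in the last, while the pool 2 lists lie above it throughout.

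At regions called by both replicates of a pool the order was kept: 125 of the 3459 regions of pool 1 only (3.61%) and 609 of the 11980 of pool 2 only (5.08%) were accessible. Of the 101 regions of all 4 libraries, 4 (3.96%) were. Regions called in a single library did not keep the order. For pool 1 the shares were 14.7% of the 75 of replicate 1 and 2.78% of the 63279 of replicate 2. For pool 2 they were 6.93% of the 9963 of replicate 1 and 2.82% of the 7377 of replicate 2. SMC3, a subunit of the cohesin ring that the study mapped in the same cells, was met by 1.67% and 1.15% of the pool 1 summits, and by 2.17% and 1.60% of the pool 2 summits. SMC3 regions lay within 250 bp of 1.01% of the length.

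Taken over libraries, 5 measures were compared between the pools, each with a two-sided exact permutation test. List length averaged 35966 ± 45538 summits in pool 1 and 21594 ± 1965 in pool 2 (SD, n = 2 each; exact permutation p = 1). The share in accessible chromatin averaged 3.44% ± 0.80 in pool 1 and 5.07% ± 1.21 in pool 2 (SD, n = 2 each), a difference of -1.63 percentage points with an exact permutation p of 0.333, which is the smallest the design allows and rises to 1 after Benjamini-Hochberg adjustment over the 5. For median spacing, the share with a neighbour within 10 kb and the share on chromosome X, exact permutation p was 1. In these 3 and in list length, the pool 2 libraries fell between the pool 1 libraries, and 1 library set the sign. Without pool 1 replicate 1 the difference in chromosome X share was 1.58 percentage points, against -1.05 with it, and that in median spacing was -45918 bp, against 87562 bp. Without pool 1 replicate 2 the difference in list length was -17829 summits, against 14372, and that in the share with a neighbour within 10 kb was -6.25 percentage points, against 8.44. The design can call no difference between the pools, and these p-values do not show that the pools are alike. Whether the replicates came from separate cultures is not in the labels, and their spread may be technical.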

How the data were processed

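ChIRP-seq, ATAC-seq and SMC3 ChIP-seq peak lists were read as deposited, 1 list per library, with positions in mm9, the build in the submitters' processing notes. Peak callers MACS2 and MACS 1.4.2, aligners Bowtie2 2.2.4 and Bowtie 1.1.1, and cutadapt 1.12, bcl2fastq 2.17.1 and CASAVA 1.8.2 appear there, with no role or order. Which of them made the ChIRP lists, with which control, threshold and filter, is not given in the sources used here. Column 5 is the score the authors' peak caller gave each summit, on a scale that is not stated, and it was used only for ranks within a list, ties taking their mean rank.

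Positions were made 1-based. Summits on chromosomes 1 to 19 and X were widened by 250 bp on each side and merged where they overlapped by 1 bp. Chromosome length was taken as the last position of any deposited peak. Lists of equal length held the best-scoring summits, with ties broken by position. Named regions were the 10 highest by mean rank percentile in each class; they and the densest windows leave out chromosome 18. The members, lists and tests were chosen with earlier results of these data known. Computations used Python 3.11.15, numpy 2.4.6 and scipy 1.17.1, and the overlap functions were tested on simulated data. A list of muscle genes was not placed on the regions, since the gene table used is of another build. The inputs and LacZ libraries, 10 samples, were not analysed here. Alternatives were other widths, overlaps, score limits, equal lengths and each library left out.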

Additional observations from a re-analysis of the deposited data

Results flagged for a closer look

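Summits on chromosome Y, the mitochondrial genome and unplaced sequences stood outside every comparison and were picked out for that reason alone. There were 11 in pool 1 replicate 1 and 646 in pool 1 replicate 2, and 104 in pool 2 replicate 1 and 91 in pool 2 replicate 2. They made up 0.291% and 0.939% of the pool 1 lists, against 0.450% and 0.448% of the pool 2 lists. Chromosome Y with its unplaced part held 390 of the 646 in pool 1 replicate 2. No control library stands beside these counts.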

How the results depend on the processing

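Of 97 recomputed values 27 counts or shares moved and 5 differences turned; the other 65 include differences that kept only their sign. The difference in median spacing, 87562 bp as pool 1 minus pool 2, turned to -36998 bp with lists of equal length; with a library left out it lay between -45918 and 221042 bp. That of summits per list lay between -17829 and 46573, that of the share with a neighbour within 10 kb between -6.25 and 23.1 percentage points, that on chromosome X between -3.68 and 1.58, and that in accessible chromatin between -2.49 and -0.773. Differences that kept their sign but moved by over 1.5 times were, with the better-scoring 50%, 7186 summits, 166468 bp and -3.17 points in accessible chromatin; at equal length, 4.61 points within 10 kb, -3.80 on chromosome X and -2.51 in accessible chromatin; with peaks of at least 1 control library, -2.90 in accessible chromatin; and among recurring summits, -3.77 on chromosome X. All turns but the one at equal length came from leaving out pool 1 replicate 1 or pool 1 replicate 2. Summits per list has no value at equal length. Without the paired summits no difference turned, a setting chosen after the data were seen.

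A replicate block, which pairs libraries by their number, left the difference of 14372 summits and the other 4 differences as they were, with exact sign-flip p-values of 0.5 for accessible chromatin and 1 for the others; 0.5 is the smallest possible. Over 2581 windows, libraries of the same number deviated together at r = 0.0774, so the numbers were not taken as pairs.

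The share of the shorter list's regions found in the other list was, within pool 1, 97.4%, and 94.5% with summits widened by 100 bp, 98.1% at 500 bp, 95.2% with an overlap of 250 bp, 98.7% with the better-scoring 50% and 68.4% at equal length. Within pool 2 it was 62.2%, and 58.5% with the better-scoring 50% and 46.5% at equal length. Between pools the mean was 3.70%. It was 2.57% at 100 bp, 5.80% at 500 bp and 2.76% with an overlap of 250 bp. It was 2.23% with the better-scoring 50% and 1.37% at equal length. With a library left out it lay between 3.48% and 3.93%. The length within reach of a summit also changes with width and list length, and was not set beside these shares. Regions of at least 1 library of each pool numbered 710 of 98332 at 100 bp and 2133 of 95345 at 500 bp. They numbered 268 of 49451 with the better-scoring 50% and 92 of 10619 at equal length. Of the 49451 regions, 40 were of all 4 libraries, 1792 of pool 1 only and 5767 of pool 2 only. Of the 10619, 29 were of all 4 and 1704 of pool 2 only. With 1 library left out, the merged regions numbered 34011 to 97213. Regions of all the rest then numbered 109 to 521, and those of both pools 163 to 1120. Those of pool 1 only numbered 3473 to 66747, and those of pool 2 only 11989 to 21965. Counts were compared as such, not as shares of these totals. Leaving out a library, or shortening lists, removes calls by construction; the other causes were not tested.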
